A study of Mus musculus with 5 samples.

Results

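Homeostatic microglial genes were described here as a set of 10: P2ry12, P2ry13, Tmem119, Cx3cr1, Selplg, Siglech, Csf1r, Sall1, Gpr34 and Fcrls. They were chosen by name, as the gene rows with these symbols, and all 10 were found among the 32285 gene rows of each library. The rule uses no measured value. They were followed in microglial nuclei and set beside the other nuclei of the mouse hippocampus.

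The study measured RNA and accessible chromatin in the same single nuclei, in 5 libraries of hippocampus with 1 library per group. One library came from wild type mice and one from 5xFAD mice, a model of amyloid deposition that carries mutant human transgenes of familial Alzheimer's disease driven by the Thy1 promoter in neurons. The other 3 came from 5xFAD mice that were also labelled as lacking MAGL, the enzyme that degrades the endocannabinoid 2-arachidonoylglycerol, in astrocytes only, in neurons only or in the whole animal. They are called here the astrocyte-labelled, neuron-labelled and global-labelled libraries, since only the label gives their genotype. All 5 carry the same batch name. Ages, the Cre drivers, the number of animals per library and any allele the controls share with the knockouts are not stated in the labels or notes at hand. Nuclei of both sexes, told apart by Xist and by Y-linked transcripts, were present in every library. Microglial nuclei with Xist and with Y-linked transcripts numbered 21 and 15 in wild type and 44 and 31 in 5xFAD. They numbered 75 and 31, 42 and 6, and 59 and 19 in the astrocyte-labelled, neuron-labelled and global-labelled libraries. With 1 library per group, differences between genotypes and differences between libraries cannot be told apart, no test was made, and every interval below is a 95% interval for counting error only.

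Microglia are the resident macrophages of the brain. At rest they survey the tissue through surface receptors, among them those these genes encode, and the transcription factor Sall1, kept on by TGF-beta signalling, helps to hold this state. Near amyloid, microglia are known to lower many of these genes and to turn on a disease-associated programme that includes Apoe, Cst7 and Lpl.

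The deposited matrices held 4050 to 7498 nuclei and 101931020 to 159532813 unique molecular identifiers (UMIs, counted RNA molecules) per library. Microglia were rare, with 44 wild type nuclei, 85 from 5xFAD, and 122, 52 and 95 in the astrocyte-labelled, neuron-labelled and global-labelled libraries. These made up 0.877% to 2.08% of the nuclei used. Their median depth was 2038 to 2820.5 UMIs. Their median share of mitochondrial UMIs was 0.082% in wild type, 0.158% in 5xFAD and 0.138% to 0.206% in the labelled libraries. How this bears on the levels below was not tested. Barcodes shared by any 2 libraries numbered 29 to 63, and none of the shared barcodes was microglial in both. Mgll encodes MAGL, the enzyme named in the labels. Levels are given as CPM, a gene's UMIs relative to all UMIs of the class on the usual CPM scale. In astrocytes Mgll stood at 493 CPM (wild type), 346 (5xFAD), 483 (astrocyte-labelled), 403 (neuron-labelled) and 430 (global-labelled). In excitatory neurons the levels were 70.0, 73.2, 89.7, 92.2 and 78.3 CPM in the same order. In inhibitory neurons they were 107, 120, 126, 98.4 and 110. In microglia, from 20 to 36 UMIs, Mgll stood at 300, 111, 142, 154 and 100 CPM in the same order. Mgll was thus not lower than in 5xFAD in astrocytes or excitatory neurons of any labelled library, so these counts do not bear out the labels. In inhibitory neurons it was lower in the neuron-labelled library (92.2 to 105 against 113 to 127) but far from lost. The exons removed are not stated, however, and UMIs from outside a removed part check nothing. Every direction drawn below from these libraries rests on the label alone.

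Nuclei were called microglial from clusters made without the 10 genes and named from 13 other markers, such as C1qa, Ctss and Inpp5d. All 13 markers were detected in every library, with a summed level of 15680 to 20855 CPM. Of 398 microglial nuclei, 11 also carried markers of other cells. Among them, 5 had at least 2 UMIs of border macrophage markers, 4 had at least 2 of T cell markers and 2 had at least 10 of oligodendrocyte markers. One of these is a wild type nucleus with 8215 UMIs, 7.95% of all wild type microglial UMIs, of which 130 were of oligodendrocyte markers and 1 of the 10 genes. In summed level, oligodendrocyte markers stood at 1335 CPM in wild type microglia, 364 in 5xFAD and 128 to 155 in the other 3 libraries. Border macrophage markers stood at 135 to 165 CPM in 4 libraries and 651 in the global-labelled library, where all 9 were detected. In the other 4 libraries F13a1, Cd163, Lyve1, Pf4 and Cbr2 were at 0. T cell markers were at 0 in the wild type and astrocyte-labelled libraries, and at 51.3 to 138 CPM in the others. Sums and ratios of the 10 genes are therefore also given without these 11 nuclei.

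Most of the genes marked microglia without having been used to find them. Over the 5 libraries, 7 of the 10 had more than 50% of their UMIs in microglial nuclei, as did 0.656% of the 19208 genes with at least 100 UMIs. Fcrls, an Fc receptor-like scavenger protein, had 80.4% of its UMIs there. Siglech, a sialic acid-binding lectin, had 80.0%, and Tmem119, a membrane protein used to tell microglia from other macrophages, had 78.3%. Selplg, the P-selectin ligand PSGL-1, followed with 75.02%, and Csf1r, the receptor on whose signal microglia depend for survival, with 70.2%. P2ry13, an ADP receptor, had 54.5% and Gpr34, a receptor for lysophosphatidylserine, had 53.4%. With no doublets removed these last shares were 47.7% and 46.9%, which leaves 5 genes above 50%. Microglia were 398 of the 26782 nuclei used, so even a much higher level there leaves UMIs in the far larger neuronal classes.

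Sall1, Cx3cr1 and P2ry12 had smaller shares, 30.4%, 19.0% and 7.69%. With each nucleus scaled to its own depth first, so that deep and shallow nuclei weigh the same, they were 59.4%, 67.5% and 43.8%. All 3 still had their highest CPM in microglia in each of the 5 libraries. P2ry12, the ADP receptor that guides microglial processes to injury, stood at 1047 CPM in microglia of the 5 libraries together, at 40.6 in astrocytes, 28.5 in oligodendrocyte precursors and 20.9 in excitatory neurons. Its gene body lies within Med12l, on the opposite strand, and Med12l stood at 295 CPM in excitatory neurons and 350 in microglia. Cx3cr1, the receptor for the neuronal chemokine fractalkine, stood at 997 CPM in microglia, 83.9 in choroid plexus or ependyma and 6.55 in excitatory neurons. The choroid plexus or ependyma class held only 3 to 10 nuclei per library. The GENCODE model of Cx3cr1 runs over several other genes, among them Gorasp1 and Csrnp1 on the same strand. How the counting treated such overlaps is not stated, so the UMIs outside microglia cannot be assigned to P2ry12 or Cx3cr1 with certainty. The same holds for P2ry13, also within Med12l, and for Gpr34, which overlaps Cask on the opposite strand, and so for their shares above. In microglia too, the overlaps limit the ratios of P2ry12, P2ry13 and Gpr34 below. Cask stood at 398 CPM in microglia and 210 in excitatory neurons, where Gpr34 stood at 639 and 0.819. Sall1 also had UMIs in glia. It stood at 267 CPM in microglia, 33.9 (28.4 to 40.1) in oligodendrocytes, 29.0 (19.5 to 41.4) in astrocytes and 4.89 in inhibitory neurons, but at 0.0841 in excitatory neurons. The level in oligodendrocytes was above that in excitatory neurons beyond counting error.

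**Figure D1:**
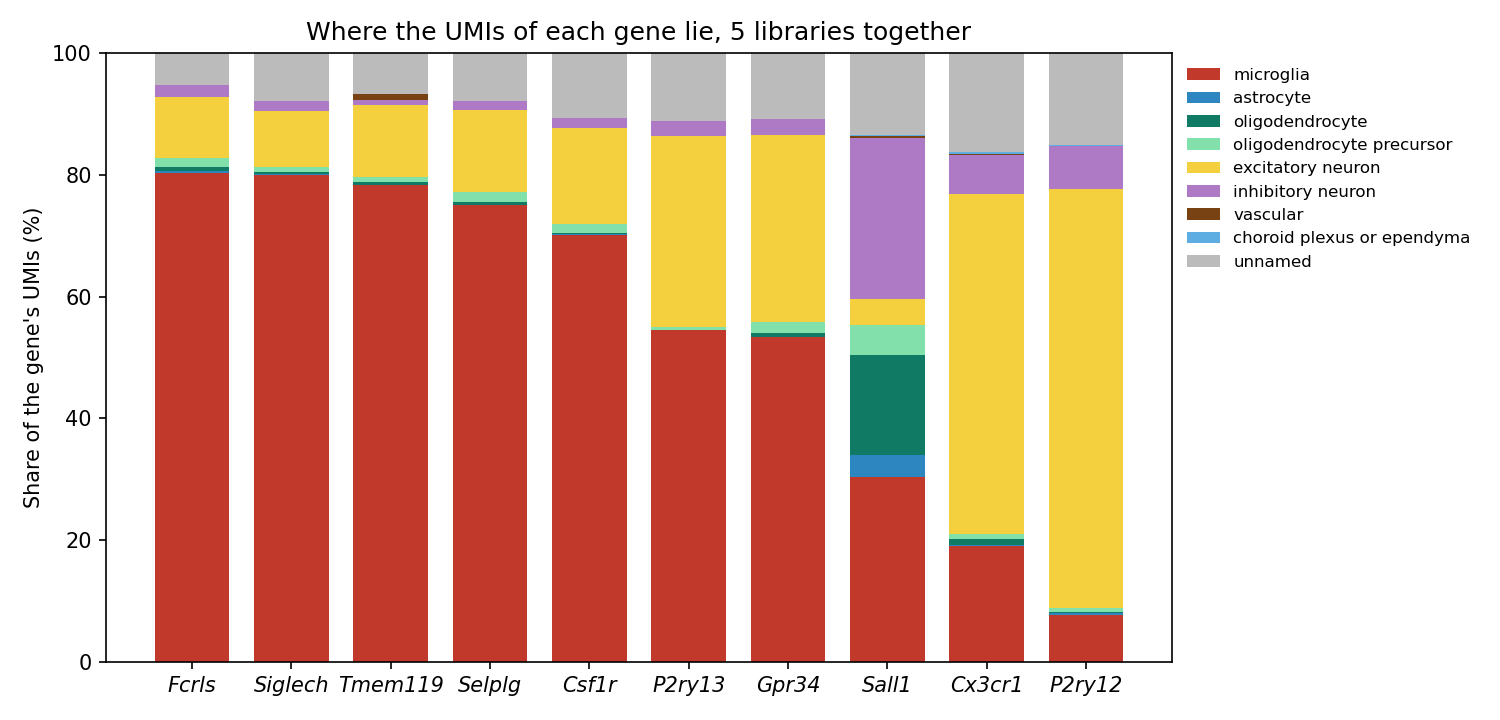
Share of each gene's UMIs (percent, vertical axis) that lay in each class of nuclei, 5 libraries together, 1 bar per gene. Microglia hold 80.4% for Fcrls and 7.69% for P2ry12, whose UMIs are mostly in the much larger class of excitatory neurons.

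In single nuclei the genes were also detected together. A microglial nucleus carried a UMI of 7 of the 10 genes at the median in the wild type and neuron-labelled libraries, and of 6 in the other 3 libraries. With nuclei classed by highest marker score the medians were 4, 5, 4, 6 and 2.5 (wild type, 5xFAD, astrocyte-, neuron- and global-labelled). Between 93.7% and 96.7% of microglial nuclei had at least 3 of the genes, against 0.224% to 0.919% of excitatory neurons, which were several times deeper. After each nucleus was thinned to 1000 UMIs the median was 6 genes in wild type and 4 in each other library. Only 5 microglial nuclei had none, of which 3 were in 5xFAD. Those include the 5xFAD nucleus with border macrophage markers. Leaving out all 4 5xFAD nuclei with markers of other cells took the summed UMIs only from 1283 to 1275. The nucleus with oligodendrocyte markers held 7 UMIs of the 10 genes, so those with T cell markers held almost none. Nuclei with markers of other cells thus do not cover all 3 nuclei without the genes. Whether the rest are microglia that lost these genes was not tested.

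The wild type library had the highest level of 9 of the 10 genes. The purinergic receptors come first. P2ry12 stood at 1509 CPM (wild type), 1033 (5xFAD), 1055 (astrocyte-labelled), 872 (neuron-labelled) and 947 (global-labelled). P2ry13 stood at 222, 115, 154, 154 and 105 CPM in the same order of libraries, which is kept below. For P2ry12 the wild type interval (1281 to 1765) lay above those of all 4 others, which overlapped one another. P2ry13 rested on 21 to 39 UMIs per library, and its wild type interval (141 to 334) overlapped the others.

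Cx3cr1 showed a wide gap, at 1664 CPM in wild type against 872, 977, 814 and 957. Its wild type interval (1424 to 1932) lay above the other 4, which overlapped. Csf1r stood at 1316, 1047, 1154, 1026 and 1117 CPM, and every pair of its intervals overlapped. Gpr34 stood at 687, 461, 807, 596 and 626 CPM. Gpr34 was the 1 gene not highest in wild type: the astrocyte-labelled library was above it, with overlapping intervals, and 5xFAD was lowest.

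The adhesion, lectin and scavenger genes were also highest in wild type. Selplg stood at 1374, 793, 1028, 731 and 837 CPM, Siglech at 1054, 821, 858, 821 and 757, and Fcrls at 532, 332, 480, 404 and 261. For Siglech all 5 intervals overlapped. For Selplg wild type overlapped only the astrocyte-labelled library, and for Fcrls it lay above only the global-labelled library. Tmem119 stood at 242, 161, 209, 135 and 195 CPM, and Sall1, the one transcription factor, at 329, 281, 248, 218 and 281. The order of the libraries could not be resolved for Tmem119 or Sall1, since every pair of intervals overlapped. Summed over the 10 genes, the level was 8928, 5917, 6970, 5769 and 6083 CPM, from 923, 1283, 1770, 900 and 1214 UMIs. Without the 11 nuclei with markers of other cells it was 9688, 6176, 6970, 5853 and 6122 CPM, and wild type was again highest for every gene but Gpr34.

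**Figure D2:**
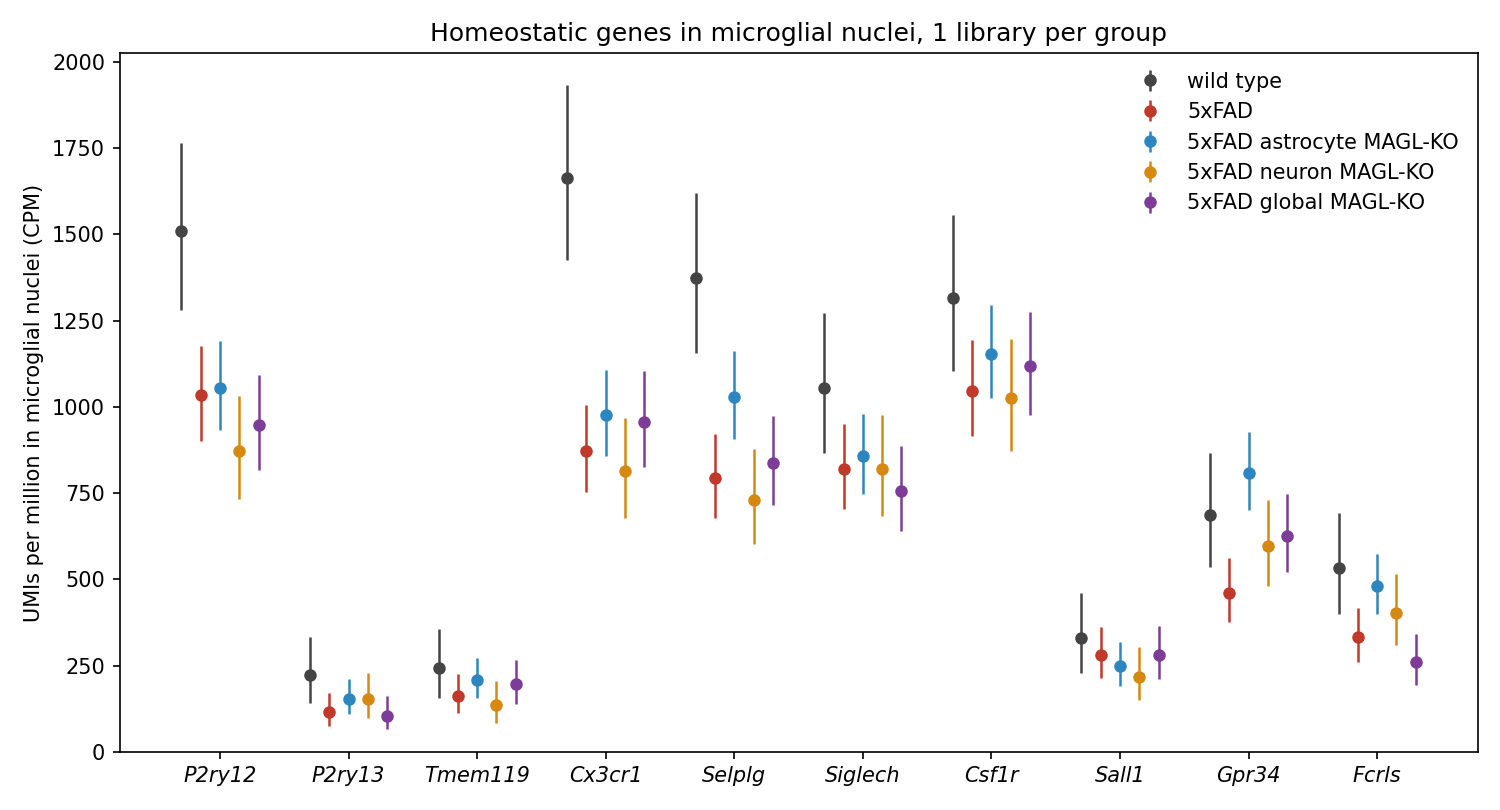
Level of each gene in microglial nuclei in CPM (vertical axis), 1 point per library with its 95% counting interval. Wild type is highest for 9 of the 10 genes, and Gpr34 is highest in the astrocyte-labelled library.

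All 10 genes were lower in 5xFAD than in wild type microglia, with a median log2 ratio of -0.58, where the median of the 3461 genes with at least 20 UMIs over both libraries was 0.03. Of the 10, 4 were lower by at least 1.5-fold (P2ry13, Cx3cr1, Selplg and Fcrls), beside 14.6% of all genes, and none was higher by that much, beside 21.3%. The count of lower genes was 0 to 7 under other settings, for most of which the share of all genes was not read. The summed level was 1.51-fold lower, a log2 ratio of -0.59 (-0.72 to -0.47). Cx3cr1 differed most clearly, with a log2 ratio of -0.93 (-1.24 to -0.63), followed by Selplg at -0.79 (-1.12 to -0.46). P2ry13 had a ratio of -0.95 with a wide interval (-1.82 to -0.07), and Fcrls one of -0.68 (-1.21 to -0.15). P2ry12 at -0.55 (-0.85 to -0.24) and Gpr34 at -0.57 (-1.03 to -0.11) were just under 1.5-fold. Csf1r at -0.33 (-0.64 to -0.01) and Siglech at -0.36 (-0.71 to -0.00) were lower by little more than counting error. Tmem119 at -0.58 (-1.36 to 0.22) and Sall1 at -0.23 (-0.85 to 0.42) had intervals that included 0.

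Without the 11 nuclei that carried markers of other cells, the summed level was 9688 CPM in wild type and 6176 in 5xFAD, a log2 ratio of -0.65 (-0.77 to -0.53), and 7 genes were lower by at least 1.5-fold, beside 15.5% of all genes in those nuclei. Among nuclei with Xist the ratio of the sums was -0.74 (-0.91 to -0.56), and among nuclei with Y-linked UMIs it was -0.25 (-0.45 to -0.04). In the latter, 15 wild type nuclei against 31, Selplg had a ratio of 0.01 and Csf1r of 0.30. The deep wild type nucleus with oligodendrocyte transcripts is among those 15. Without nuclei carrying other markers the ratios were -0.66 (-0.83 to -0.48) with Xist and -0.53 (-0.73 to -0.32) with Y-linked UMIs. The difference between the sexes was not tested.

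**Figure D3:**
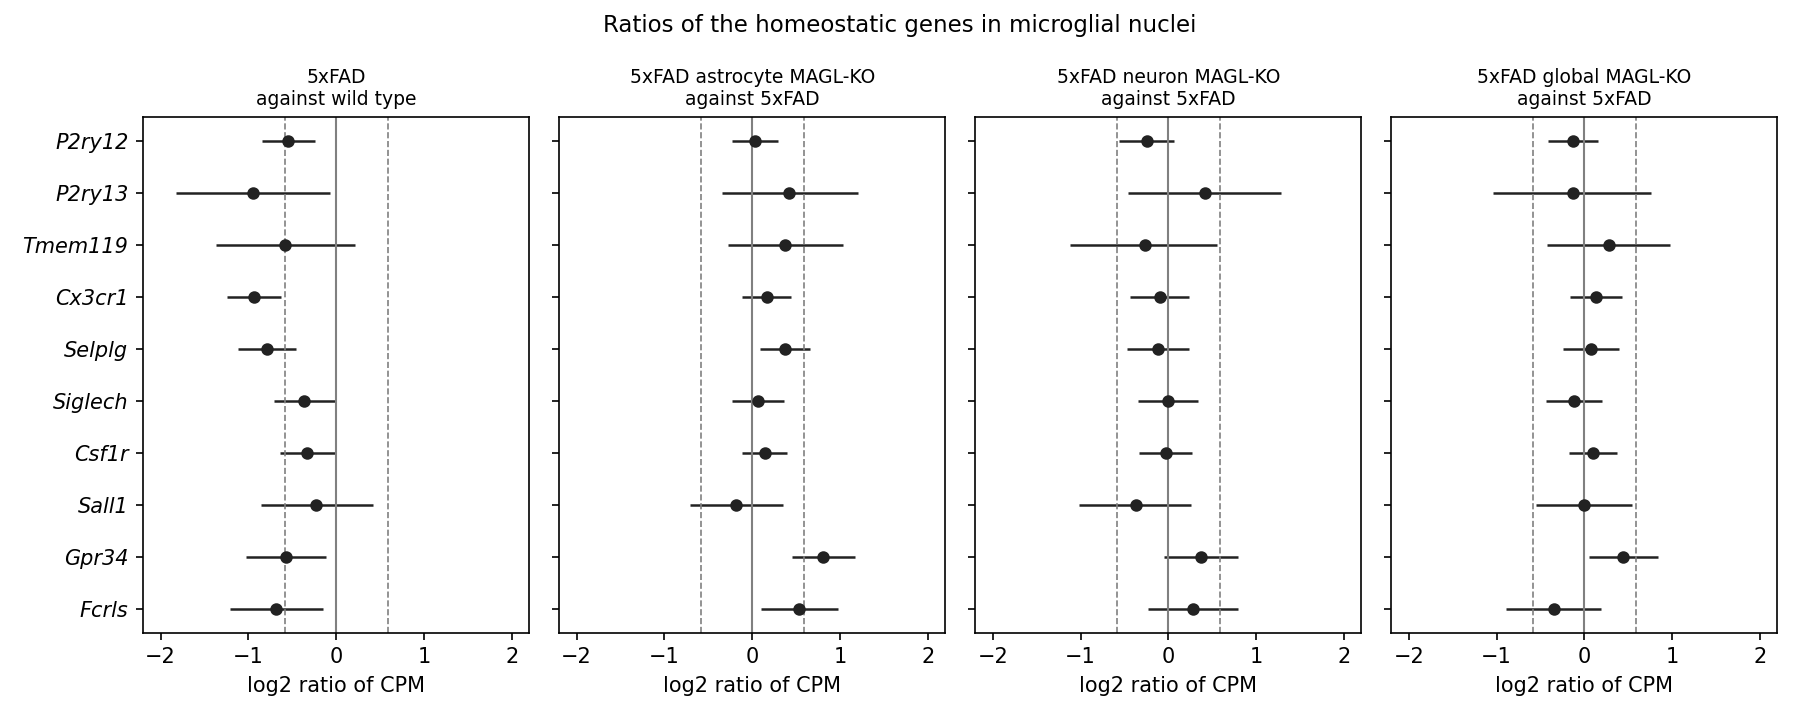
Log2 ratio of the level of each gene in microglial nuclei (horizontal axis) in each of the 4 comparisons, with 95% counting intervals; dashed lines mark 1.5-fold. In 5xFAD against wild type all 10 points lie below 0, while against 5xFAD only Gpr34 in the astrocyte-labelled library passes 1.5-fold.

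Microglia divided into clusters that differed in Apoe, and the level of the 10 genes followed them. Clustering used other microglial genes but not these 10, and the cells were the same, so what follows is a description. The name high-Apoe was given to any microglial cluster that held few or none of the wild type nuclei. All 44 wild type nuclei were in the low-Apoe cluster, which that rule largely sets. The high-Apoe cluster held 51 of 85 nuclei in 5xFAD and 77 of 122, 35 of 52 and 48 of 95 in the astrocyte-labelled, neuron-labelled and global-labelled libraries. Apoe, which encodes a lipid carrier, stood at 116 CPM in wild type. In the 4 libraries from 5xFAD mice it stood at 600 to 1316 CPM in the low-Apoe cluster and 4660 to 11288 in the high-Apoe cluster.

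In the low-Apoe cluster the 10 genes summed to 8928, 8621, 10071, 8114 and 8454 CPM in the 5 libraries, in the order used above. In the high-Apoe cluster of the last 4 they summed to 4536, 5242, 4662 and 3930 CPM. The ranges of the clusters did not overlap. Within a library the high-Apoe cluster was lower by a log2 ratio of -0.93 (-1.09 to -0.77) in 5xFAD, -0.94 (-1.08 to -0.81) with the astrocyte label, -0.80 (-0.99 to -0.61) with the neuron label and -1.11 (-1.28 to -0.93) with the global label. With clusters made without any of the microglial lists the same ratios were -1.11, -0.94, -0.87 and -1.15. Without nuclei carrying markers of other cells they were -0.99, -0.94, -0.87 and -1.17.

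The genes did not share this difference evenly. In the order just given, 10, 9, 7 and 8 of the 10 were lower by at least 1.5-fold in the high-Apoe cluster, beside 18.3%, 16.9%, 18.6% and 17.5% of all genes. Their median log2 ratios were -0.96, -1.10, -0.83 and -1.29, where those of all genes were -0.02, 0.03, -0.00 and -0.00. Tmem119 had the lowest ratios in 3 of the 4 libraries, at -2.09, -1.68, -2.08 and -2.60, the astrocyte-labelled library being the exception (Sall1, -1.74). P2ry12 was lower in every library, at -1.23, -1.26, -1.29 and -1.57, from 1453 to 1684 CPM in the low-Apoe cluster and 488 to 711 in the high-Apoe cluster. Gpr34 was nearly even in the astrocyte-labelled library, at -0.02 (-0.44 to 0.41), and had ratios of -0.91, -0.22 (-0.86 to 0.44) and -0.63 in 5xFAD and the neuron-labelled and global-labelled libraries. In the neuron-labelled library Fcrls at -0.18 and P2ry13 at -0.35 were also under 1.5-fold, and in the global-labelled library so were Csf1r at -0.44 (-0.83 to -0.04) and Sall1 at -0.35 (-1.16 to 0.46).

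The low-Apoe cluster is the one in which the wild type nuclei lie, so its 34 5xFAD nuclei are those that clustered with wild type. Likeness to wild type is thus partly built in. Within this cluster alone, the sums of 5xFAD and wild type differed by less than counting error. They had a log2 ratio of -0.05 (-0.20 to 0.10), and the median of the 10 genes was 0.00, with none past 1.5-fold, beside 13.9% of all genes lower and 14.3% higher by that much. Of the 10 genes 5 were above 0, the opposite sign from that over all microglia: Tmem119 at 0.44 (-0.43 to 1.30), Sall1 at 0.32 (-0.44 to 1.07), P2ry12 at 0.14, Csf1r at 0.08 and Siglech at 0.03. All 5 intervals included 0. Cx3cr1 was the only gene whose interval stayed below 0, with 1160 CPM in 5xFAD and 1664 in wild type and a ratio of -0.52 (-0.91 to -0.14). Without nuclei carrying markers of other cells the ratio of the sums was -0.07 (-0.22 to 0.08).

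**Figure D4:**
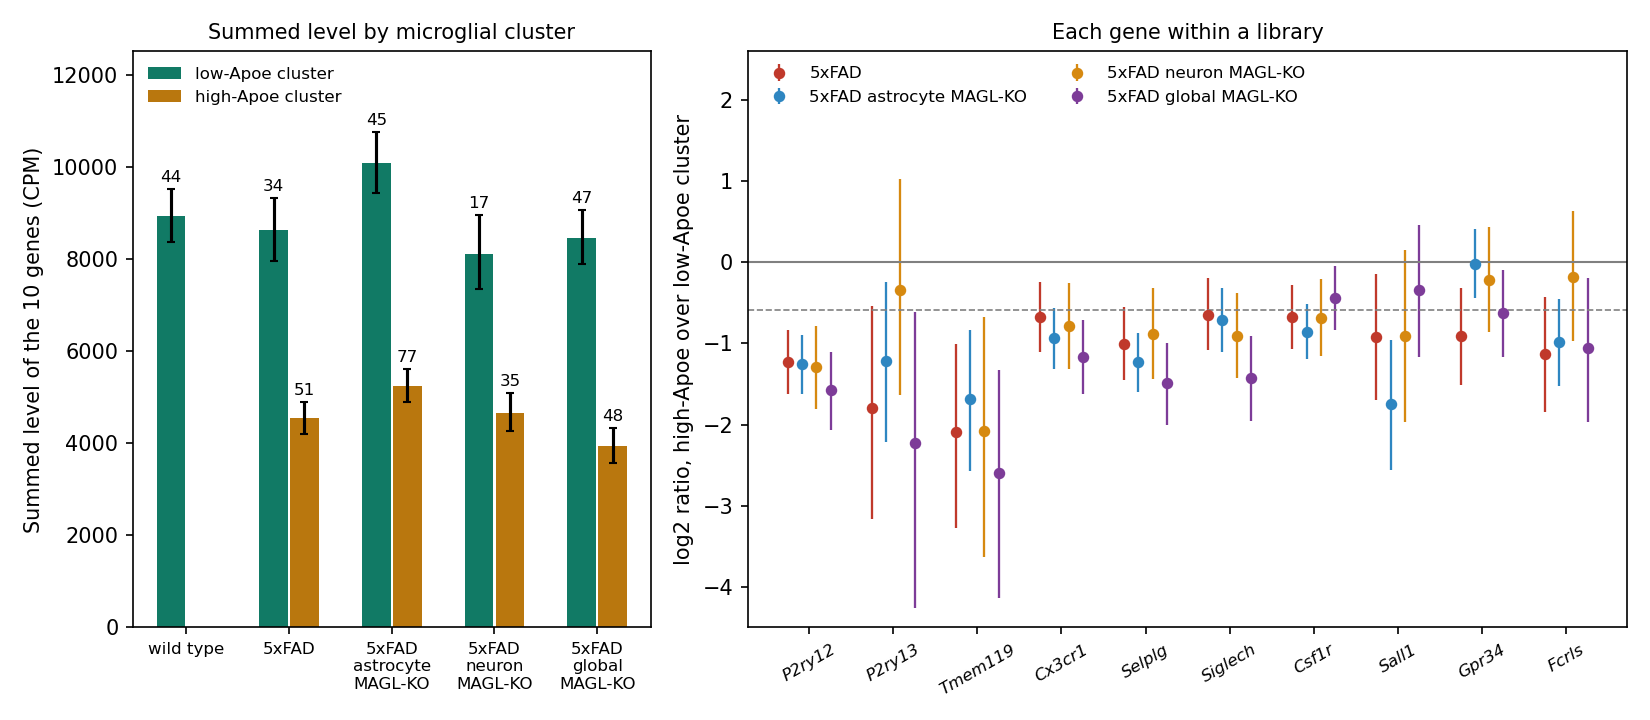
Left, summed level of the 10 genes (CPM) in the low-Apoe and high-Apoe clusters of each library, with 95% counting intervals and the number of nuclei above each bar; right, log2 ratio of each gene between the clusters, with 1.5-fold lower dashed. The sums are 8114 to 10071 in the low-Apoe cluster and 3930 to 5242 in the high-Apoe cluster, and Gpr34 in the astrocyte-labelled library lies at -0.02.

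The 3 comparisons with 5xFAD as the control share that 1 library, so their values are set side by side and are not independent. In the astrocyte-labelled library, 9 of the 10 genes were above their 5xFAD level, with a median log2 ratio of 0.27, where that of all 4625 genes was 0.02. Gpr34 alone was higher by at least 1.5-fold, at 0.81 (0.46 to 1.17), beside 13.1% of all genes, and none was lower by that much, beside 12.3%. Fcrls at 0.53 (0.10 to 0.97) and Selplg at 0.37 (0.09 to 0.66) had intervals above 0, and Sall1 at -0.18 (-0.71 to 0.35) was the gene below. The other 6 genes lay between 0.03 (P2ry12) and 0.41 (P2ry13), with Tmem119 at 0.37, Cx3cr1 at 0.16, Csf1r at 0.14 and Siglech at 0.06. The sums had a ratio of 0.24 (0.13 to 0.34). This ratio was smaller when nuclei were thinned to 1000 UMIs, at 0.09 (-0.07 to 0.25), and among nuclei with Y-linked UMIs, at 0.08 (-0.10 to 0.27), and larger with nuclei classed by highest marker score, at 0.46. Without nuclei carrying markers of other cells it was 0.17 (0.07 to 0.28), and 7 genes rather than 9 were above their 5xFAD level. Within the low-Apoe cluster Gpr34 had a ratio of 0.29 (-0.25 to 0.84).

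In the neuron-labelled library, 7 genes were below and 3 above their 5xFAD level. The median was -0.06 (all 3897 genes, -0.01) and the ratio of the sums -0.04 (-0.16 to 0.09), or -0.08 (-0.20 to 0.05) without nuclei carrying markers of other cells. No gene passed 1.5-fold, beside 14.1% of all genes lower and 11.4% higher. With nuclei classed by highest marker score P2ry13 (0.86), Gpr34 (0.73) and Fcrls (0.63) did, in a set that takes in much deeper nuclei. Among nuclei with Y-linked UMIs Fcrls (1.39), Cx3cr1 (-0.76) and Sall1 (-0.63) did. Those were only 6 nuclei in the neuron-labelled library, 83.3% of them in the high-Apoe cluster. The share of all genes past 1.5-fold was not read in either setting. Gpr34 had a ratio of 0.37 (-0.05 to 0.79), P2ry13 one of 0.42 (-0.45 to 1.28) and Fcrls one of 0.28 (-0.23 to 0.79). Below 5xFAD were Sall1 at -0.37, Tmem119 at -0.26, P2ry12 at -0.24, Selplg at -0.12, Cx3cr1 at -0.10, Csf1r at -0.03 and Siglech at -0.00, with intervals that all included 0. The ratio of the sums was on the other side of 0 in 4 of 18 alternatives, at 0.46 by marker score, 0.06 among nuclei with Y-linked UMIs (0.02 without other markers) and 0.02 with no doublets removed. In the global-labelled library, 5 genes were below and 5 above, with a median of 0.04 (all 4198 genes, 0.00) and a ratio of the sums of 0.04 (-0.07 to 0.15). Again none passed 1.5-fold, beside 12.4% lower and 11.5% higher. Gpr34 at 0.44 (0.05 to 0.84) was the only gene with an interval off 0, and Fcrls was lowest at -0.35 (-0.89 to 0.18). Tmem119 at 0.28, Cx3cr1 at 0.13, Csf1r at 0.09 and Selplg at 0.08 were above, and P2ry13 at -0.13, P2ry12 at -0.13, Siglech at -0.12 and Sall1 at -0.00 below. The ratio of the sums was on the other side of 0 in 9 of 18 alternatives: by marker score (-0.20), among nuclei with Y-linked UMIs (-0.20), after thinning (-0.11), in the low-Apoe cluster (-0.03), as mean CPM per nucleus (-0.02) and without nuclei carrying markers of other cells (-0.01). The other 3 combine that last step with Y-linked UMIs (-0.14), the low-Apoe cluster (-0.07) and thinning (-0.02). These intervals do not show that the libraries were alike.

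Other genes of the homeostatic programme were read from a list of 25. Of the 20 with enough UMIs in 5xFAD against wild type, 8 were lower by at least 1.5-fold, beside 14.6% of all genes, and 1 was higher, beside 21.3%, with a median of -0.35. The fructose transporter gene Slc2a5 was lowest at -1.92 (-3.19 to -0.72), then Cmtm6 at -1.48 (-2.91 to -0.11). Serpine2, a protease inhibitor gene, was highest at 2.12 (1.21 to 3.16), then Entpd1, whose ectoenzyme breaks down ATP and ADP, at 0.28 (-0.10 to 0.67). In the astrocyte-labelled library against 5xFAD, 6 of 21 were higher by 1.5-fold, beside 13.1% of all genes, and none lower, beside 12.3%, with a median of 0.16. Ltc4s at 0.92 (0.10 to 1.78) and Slc2a5 at 0.77 (-0.39 to 2.03) were highest, and Entpd1 at -0.26 and Bin1 at -0.21 lowest.

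The signals and factors around the 10 genes were less uniform. Of 13 microglial transcription factors, 1 was lower (Spi1, encoding PU.1, -0.67) and 2 were higher by 1.5-fold in 5xFAD than in wild type (Mitf, 0.94, and Irf8, 0.68), with a median of -0.06. Beside 14.6% of all genes lower and 21.3% higher, these counts are not a result about the factors. Mef2a, second lowest at -0.51 (-0.73 to -0.29), was the better measured of the lower factors, as Spi1 had an interval of -1.52 to 0.20. Of 9 genes of TGF-beta signalling, Tgfbr2, a receptor subunit, was higher at 0.96 (0.53 to 1.42). The rest lay between -0.52 (Smad7) and 0.11 (Nrros), with Smad2 at -0.37. Of 10 partners and effectors of the receptors, 3 were higher by 1.5-fold, beside the same 21.3% of all genes. Inpp5d and Tyrobp, of this list, are also naming markers. The 2 highest were P2rx4, an ATP-gated channel gene, at 1.17 (0.22 to 2.26), and Tyrobp, the adaptor that Siglech signals through, at 1.14 (0.47 to 1.85). The 2 lowest were P2ry6 at -0.40 and Inpp5d, a phosphatase gene, at -0.39 (-0.65 to -0.14).

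Against 5xFAD, which the next values share as control, the other lists differed in scattered genes. Of all genes 12.3%, 14.1% and 12.4% were lower and 13.1%, 11.4% and 11.5% higher by 1.5-fold in the astrocyte-labelled, neuron-labelled and global-labelled libraries, and list counts near these shares are not a result about a list. In the neuron-labelled library, 2 of 18 other homeostatic genes were lower (Ltc4s, -0.60, and Il6ra, -0.60) and 1 higher by 1.5-fold, with a median of 0.01. Rhob at 0.77 and Tal1 at 0.48 were highest. In the global-labelled library none of 21 was lower and 3 were higher, with a median of 0.00. Slc2a5 at 1.26 (0.12 to 2.50) and Adgrg1 at 0.70 were highest, and Serpine2 at -0.35 and Entpd1 at -0.24 lowest.

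Of the 13 transcription factors, 1, none and 1 were higher and none, none and 1 lower by 1.5-fold in the astrocyte-labelled, neuron-labelled and global-labelled libraries, with medians of 0.16, 0.09 and 0.09. In the global-labelled library these were Spi1 at 0.72 (0.01 to 1.45) and Bhlhe41 at -0.80 (-2.15 to 0.45). Of the 13, 8, 8 and 9 were above their 5xFAD level in the same order of libraries. Of all genes 48.1%, 51.2% and 49.4% were below it. With 13 genes and 1 shared control, these counts are not a result about the factors. The lowest were Ikzf1 at -0.47 and Irf8 at -0.41 in the astrocyte-labelled library, Etv5 at -0.47 and Ikzf1 at -0.30 in the neuron-labelled library, and Bhlhe41 and Mitf (-0.28) in the global-labelled library. Of the factors named, Ikzf1 in the astrocyte-labelled library and Spi1 in the global-labelled library had intervals off 0.

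Of the 9 TGF-beta genes, none, 1 and 1 were lower by 1.5-fold in the astrocyte-labelled, neuron-labelled and global-labelled libraries and none was higher, with medians of 0.02, -0.04 and 0.15. In the astrocyte-labelled library Smad2 at -0.51 and the ligand gene Tgfb1 at -0.44 were lowest, and Ski at 0.42 and Tgfbr1 at 0.29 (0.13 to 0.45) highest. In the neuron-labelled library Smad3 at -0.82 (-1.61 to -0.08) and Tgfb1 at -0.34 were lowest, and Ski at 0.46 and Nrros at 0.15 highest. In the global-labelled library Tgfb1 at -0.63 and Smad4 at -0.30 were lowest, and Smad7 at 0.35 and Nrros at 0.28 highest. Tgfb1 was thus below its 5xFAD level in each, with intervals that included 0.

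Of the receptor partners, 1 of 12 was lower and 1 higher in the astrocyte-labelled library, and 2 of 10 were lower and none higher in each of the other 2, with medians of 0.06, -0.18 and -0.13. Gnai2, a G protein subunit gene, had ratios of -0.66, -0.67 and -0.59. The kinase gene Syk was the other low gene in the astrocyte-labelled (-0.39) and global-labelled (-0.61) libraries, and Plcg2, a phospholipase gene, in the neuron-labelled library (-0.63, -1.23 to -0.06). The highest were Gnai3 at 0.71 and Adora3 at 0.51 (astrocyte-labelled), Tyrobp at 0.41 and P2rx7 at 0.07 (neuron-labelled), and P2rx7 at 0.58 and Kcnk13 at 0.39 (global-labelled).

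The ligand genes were read in other classes too, since few had UMIs in microglia. Cx3cl1, which encodes fractalkine, stood at 64.7, 65.8, 77.1, 73.8 and 60.4 CPM in excitatory neurons of the 5 libraries, a range within which wild type and 5xFAD were close. Il34, a ligand gene of Csf1r, stood at 13.7 to 15.6 CPM in excitatory neurons, and Csf1, the other, at 77.7 to 153 CPM in oligodendrocytes. Within microglia Csf1 had 1 UMI in wild type and 22, 15, 13 and 8 in the other libraries. Its log2 ratio in 5xFAD against wild type was 3.39 with a counting interval of 0.76 to 8.76.

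Among 2099 genes with at least 100 microglial UMIs, those whose levels over the 5 libraries lay closest to those of the 10 summed, each centred on its mean log2 CPM, were Garnl3, Stau1 and Sppl3. Their mean absolute differences were 0.02, 0.04 and 0.04 on the log2 scale, over 5 libraries. They rested on only 164, 112 and 273 microglial UMIs over the 5 libraries. No counting interval was set on these differences, so their closeness is a description only. In the same measure P2ry12 differed by 0.08 and Gpr34 by 0.23.

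The chromatin of the same nuclei was read as transposase cut sites in each library's listed peaks, which had been called over all nuclei. Within 1000 bases of the 5' end of a coding transcript in GENCODE's basic set, 4, 5, 5, 6 and 4 of the 10 genes had a listed peak in the 5 libraries. Counted there, each of these genes had at least a 4-fold higher cut-site CPM in microglia than in other nuclei, beside 6.12%, 5.45%, 5.6%, 6.41% and 6.32% of all genes with a promoter peak. With nuclei classed by highest marker score 3 of 4 did in the global-labelled library, where Csf1r was 3.97-fold higher. The median log2 ratios were 4.20, 4.79, 4.87, 4.61 and 4.04. By these 5' ends no such peak was listed for P2ry13, Selplg, Gpr34 or Fcrls. That set starts Selplg and Gpr34 downstream of the RefSeq models. A peak over the outer 5' end of Selplg in RefSeq and in the whole GENCODE gene (chr5:113832343-113833265) was listed in all 5 libraries with only 13 microglial cut sites in all, none of them in wild type. It was not 4-fold higher in microglia, with a log2 ratio of 0.01 (-0.90 to 0.79) over the 5 libraries, so by that end Selplg has a promoter peak that does not share the difference. A peak that ends within 1000 bases of the RefSeq start of Gpr34 was listed in the astrocyte-labelled library only, with 6 microglial cut sites and a ratio of 2.66 (1.18 to 3.84). For P2ry12 the peaks counted lie by 5' ends inside the gene (chr3:59219835-59220703 and, in some libraries, chr3:59228528-59229511). No peak was listed in any library just before its outer 5' end in RefSeq (chr3:59262985). In so few nuclei an unlisted peak does not show closed chromatin.

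Of the single peaks in or within 10000 bases of a gene, 17 of 32, 18 of 35, 20 of 33, 22 of 39 and 18 of 36 were at least 4-fold higher in microglia, beside 3.95%, 3.58%, 3.25%, 3.81% and 3.61% of all peaks. Merged over libraries these made 46 regions, of which 28 were listed in all 5 libraries and 16 of those were 4-fold higher. An intronic region of P2ry12 (chr3:59260598-59261529) had 99.1, 89.3, 56.4, 50.8 and 79.7 cut-site CPM in microglia, and a log2 ratio to other nuclei of 4.21 over the 5 libraries. The 5' end of Tmem119 (chr5:113799908-113800884) had 75.6, 62.5, 63.4, 70.3 and 50.4, with a ratio of 5.01. An intronic region of Cx3cr1 (chr9:120054336-120055206) had 46.9, 57.4, 65.8, 76.1 and 76.5, with a ratio of 4.53. Each library's own peak was used, so widths differ slightly. The intervals of the libraries overlapped in each of these 3 regions, so their order is not resolved. Csf1r had an intronic region with 138, 122, 139, 135 and 143 cut-site CPM and a ratio of 4.57. P2ry12 (chr3:59216271-59262985) and P2ry13 (chr3:59207892-59210882) are neighbours on the minus strand, and 2 regions are counted for both.

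**Figure D5:**
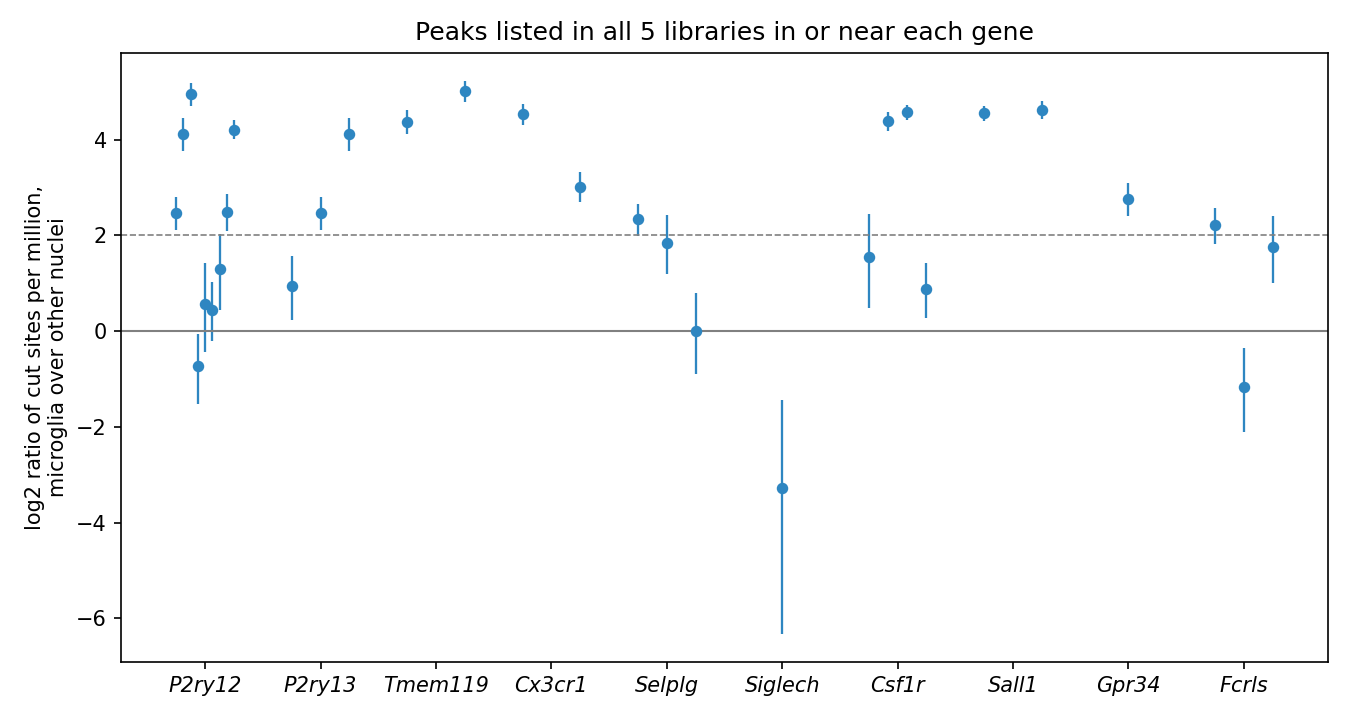
Log2 ratio of cut-site CPM in microglia over other nuclei (vertical axis) for each region listed in all 5 libraries in or near each gene, with 95% counting intervals; 4-fold is dashed, points run in genome order within a gene, and 2 regions are drawn under both P2ry12 and P2ry13. Of the 28 regions, 16 lie above the dashed line, and the 1 region of Siglech lies at -3.28.

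The promoters differ in base composition. RefSeq promoter sequence on GRCm38.p6 was at hand for 6 of the 10 genes, and 1 window each of Siglech and Sall1 is shown, as a CG-poor and a CG-rich window that a listed peak overlaps. Each gives the 250 bases before a transcript start, 5' to 3' on the gene's strand, with CG dinucleotides in capitals.
Siglech: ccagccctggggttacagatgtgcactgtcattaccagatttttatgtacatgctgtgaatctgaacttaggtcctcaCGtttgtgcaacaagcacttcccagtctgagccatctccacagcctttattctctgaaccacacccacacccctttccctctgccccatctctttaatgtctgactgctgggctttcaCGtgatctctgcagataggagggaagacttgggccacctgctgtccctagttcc
Sall1: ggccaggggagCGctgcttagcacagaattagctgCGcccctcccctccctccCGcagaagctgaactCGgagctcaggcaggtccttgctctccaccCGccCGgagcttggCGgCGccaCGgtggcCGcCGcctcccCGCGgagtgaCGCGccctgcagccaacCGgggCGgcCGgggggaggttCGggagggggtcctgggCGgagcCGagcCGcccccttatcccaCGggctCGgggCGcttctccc
The Siglech window (chr7:55767934-55768183, plus strand) holds 2 CG, and 29.0% of 32851 RefSeq promoters hold 2 or fewer. A peak there was listed in 1 library, the neuron-labelled one, with 38 microglial cut sites and a log2 ratio to other nuclei of 6.25. The Sall1 window (chr8:89043513-89043762, minus strand) precedes a start inside the gene and holds 25 CG, and 90.4% of promoters hold 25 or fewer. Another Sall1 window, not shown, holds 30. The window before the outer start of Sall1 (chr8:89044163-89044412), also not shown, holds 13, and no listed peak overlapped it in any library. The median promoter holds 6. A peak over the Sall1 window was listed in all 5 libraries and had a ratio of 4.62. The other nuclei are mostly neurons, and over the promoter peaks of Sall1 together other glia were far closer to microglia than excitatory neurons were. In wild type microglia stood at 183 cut-site CPM, astrocytes at 168, oligodendrocytes at 121, their precursors at 104 and excitatory neurons at 2.21. In the other 4 libraries microglia stood at 158 to 224, astrocytes at 118 to 162, oligodendrocytes at 101 to 126, precursors at 64.1 to 128 and excitatory neurons at 2.04 to 3.42. In the global-labelled library microglia, at 216, lay above each of the other glia beyond counting error. The motif GAGGAA, a core of sites for the factor PU.1, was searched on both strands (GAGGAA and TTCCTC). It was found in the P2ry13 and Fcrls windows and in 23.3% of all promoters. A match is a description of the letters and not a bound site.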

How the data were processed

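RNA and chromatin were measured in nuclei of 5 mouse hippocampus libraries, 1 per group as labelled. The authors deposited counts per gene (UMIs) and counts per peak (cut sites) for each nucleus, made with Cell Ranger ARC 2.0.0 on mm10, per the submitters' processing notes, which also name Seurat. Nuclei needed 500 genes or more and no more than 5% of UMIs from mitochondria. As likely doublets, the nuclei of highest Scrublet score were removed, 0.8% per 1000 nuclei in a library. Clustering used scanpy 1.11.5 and leidenalg 0.10.2 under Python 3.11.15 (2000 variable genes without the 10 members, 40 components, 15 neighbours, resolution 1). Clusters were named from markers that are not members, and needed at least 3 detected markers. Names stand for microglia-like and so on.

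UMIs were summed per library and class and scaled to CPM, with no pseudocount. Intervals of levels are exact Poisson, those of shares Clopper-Pearson, and those of ratios exact conditional binomial (scipy 1.17.1). Ratios use genes with at least 20 UMIs over both libraries, and 1.5-fold was the threshold. The ratio script was checked on simulated data. With 1 library per group there is no test. UMIs are counted molecules, and intervals cover counting error only.

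All 10 members are named in each comparison, and of each other list the 2 highest and 2 lowest genes, apart from some results that are not reported here. Apoe in later comparisons, the named regions and other genes beyond this were chosen after their values were seen. The 3 genes nearest in pattern were taken by mean absolute difference. The members and lists were chosen with earlier results of these data known. Alternatives covered class labels, clustering genes, filters, doublets, scaling, pseudocount, weighting, thinning, sexes, clusters and promoter window. Leaving out nuclei with markers of other cells was added after seeing the data. Peaks were not compared between libraries as sums, because each library has its own peak list. Protein sequences were not used here.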

Additional observations from a re-analysis of the deposited data

How the results depend on the processing

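No paired analysis was possible because 1 library stands for each group, so a block would leave nothing to compare within it. Counting error, few microglia and shallow nuclei limit every value.

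For 5xFAD against wild type, the ratio of the sums stayed below 0 in all 18 alternatives (-0.74 to -0.050). Without the high-Apoe cluster the median turned to 0.0020 and the sum came to -0.050, with 5 of 10 genes above 0 (Tmem119 0.44, Sall1 0.32, P2ry12 0.14, Csf1r 0.081, Siglech 0.032); this setting leaves out 51 of 85 5xFAD nuclei and no wild type nucleus. Leaving out nuclei with other markers as well gave -0.014 and -0.067. With nuclei classed by highest marker score (median -0.44, sum -0.41), no doublets removed (-0.75, -0.73), Xist only (-0.76, -0.74) and Y-linked UMIs only (-0.056, -0.25; Selplg 0.014, Csf1r 0.30) values moved. With Y-linked UMIs and no other markers the median was -0.34, and thinned without other markers it was -0.74.

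For the astrocyte label against 5xFAD, marker-score classes gave a median of 0.44 and a sum of 0.46. Y-linked nuclei gave a sum of 0.083, and 0.048 without other markers. The low-Apoe cluster without other markers gave 0.10 and 0.12, mean per-nucleus CPM a median of 0.12, and thinning 0.022 and 0.089, with a median of 0.062 without other markers. For the neuron label, marker-score classes gave 0.43 and 0.46, and the low-Apoe cluster without other markers a median of -0.22. For the global label, marker-score classes gave -0.21 and -0.20, Xist a median of 0.16, Y-linked nuclei -0.24 and -0.20 (-0.14 and -0.14 without other markers), the low-Apoe cluster without other markers a median of -0.081, and thinning -0.21 and -0.11. The signs for the neuron and global labels thus depend on these settings. Marker-score classes held 89 and 138 nuclei where 44 and 85 were used for wild type and 5xFAD. Their UMIs were 775831 and 1543463 against 103381 and 216825. For the neuron label they held 85 nuclei with 818843 UMIs, against 52 with 155995. The nuclei so added were far deeper than the microglia used, and unevenly so between libraries. Signs under this setting therefore say little about microglia.

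The median share of UMIs in microglia was 62.4%, 66.9% by marker score, 54.0% with no doublets removed and 93.8% as mean per-nucleus CPM. Between clusters, the 5xFAD ratio of the sums was -1.14 with the members among the clustering genes and -1.11 without any microglial list. Among Y-linked nuclei it was -1.15, -0.22 (5 nuclei against 1) and -0.87 with the astrocyte, neuron and global labels. The promoter medians were 2.94, 3.83, 3.86, 3.94 and 2.70 by marker score, and with a 250-base window 4.33 in 5xFAD and 3.79 with the global label. The 5xFAD count of 4 lower genes was 7 with clustering without microglial lists, no doublets removed, thinning or median-of-ratios scaling, 2 among Y-linked nuclei and 0 in the low-Apoe cluster. Clustering without the lists and no doublet removal both left wild type at 43 nuclei and 95166 UMIs. Leaving out nuclei with other markers did the same, so on the wild type side these settings are not separate from that step. With the astrocyte label the 1 higher gene became 4 by marker score and 0 among Y-linked nuclei or in the low-Apoe cluster, and 1 was lower after thinning. Where none had passed, 3 were higher by marker score and 1 higher and 2 lower among Y-linked nuclei (neuron label), and 1 lower by marker score (global label). In the low-Apoe cluster without other markers Fcrls was also lower with the global label, at -0.80 (-1.57 to -0.05). The causes were not tested.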

Other observations

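The disease-associated list went the other way from the 10 genes in 5xFAD. Of 27 genes, 22 had enough UMIs, and 16 of the 17 with UMIs in both libraries were higher than in wild type by at least 1.5-fold, beside 21.3% of all genes; Lpl, Axl, Igf1, Lilrb4a and Colec12 had no UMI in the 44 wild type nuclei. The median log2 ratio was 1.56 over the 17, and 1.77 with the 5 others at their lower bound. The minimum of UMIs applied to both libraries together, and microglia held 103381 UMIs in wild type and 216825 in 5xFAD. Genes nearly absent from wild type could thus enter through 5xFAD alone, which can favour higher genes. The same minimum set the 21.3%. How far it raised the count and the medians of this list was not tested. Apoe was highest at 5.92 (5.11 to 6.88), from 116 to 7038 CPM, then Cst7, a cystatin gene, at 4.60 from 1 and 51 UMIs (2.06 to 9.94). Lowest were Cd74, the invariant chain gene, at -0.47 (-1.05 to 0.12) and Trem2, the lipid-sensing receptor, at 0.66 (0.25 to 1.09).

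Against 5xFAD, the same list had a median of 0.01 in the astrocyte-labelled library, with 5 of 25 genes lower and 3 higher by 1.5-fold, beside 12.3% and 13.1% of all genes. Lpl at 1.14 and Lilrb4a at 1.06 were highest, and Colec12 at -4.62 (-9.99 to -1.98, from 1 and 21 UMIs) and Spp1 at -1.55 (-3.20 to -0.10) lowest. Apoe had a ratio of -1.13 (-1.25 to -1.004), at 3221 CPM against 7038. In the high-Apoe cluster Apoe stood at 10124 CPM in 5xFAD, 4660 with the astrocyte label, 11288 with the neuron label and 5928 with the global label. A lower Apoe level was thus not particular to the astrocyte label. In the neuron-labelled library the median was 0.15, with 1 of 24 lower and 6 higher, beside 14.1% and 11.4%. Ccl6 at 1.38 (0.05 to 2.83) and Cd74 at 1.097 (0.63 to 1.57) were highest, and Colec12 at -0.75 and Myo1e at -0.29 lowest. In the global-labelled library it was -0.40, with 6 of 22 lower and none higher, beside 12.4% and 11.5%; Lilrb4a at 0.32 and Lpl at 0.29 were highest, and the lowest were Cst7 at -1.30 (-2.15 to -0.52) and Cd74 at -0.996 (-1.67 to -0.35). In the same library the 10 homeostatic genes had a median of 0.04.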
